A study of Mus musculus with 8 samples.

Results

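The loci of 10 murine granule protein genes (Mpo, Elane, Prtn3, Ctsg, Ltf, Camp, Lcn2, Ngp, Lyz2 and Lyz1) were examined for PU.1 and CEBPA peaks. A peak was assigned to a locus when its centre lay in the annotated gene body or within 20 kb of it. These were 10 of 21938 protein-coding genes in the GENCODE M21 annotation of mm10 (GRCm38). They were chosen as granule genes and classic targets of CEBPA and PU.1, with earlier results of these data known. The choice was not blind to binding, so a share above that of all genes is not an independent finding. Their loci held 6 of 5288 PU.1 peaks and 24 of 26119 CEBPA peaks in the PU.1− line, and 16 of 15683 PU.1 peaks and 21 of 20583 CEBPA peaks in the PU.1+ line. Joining peaks that shared at least 1 bp gave 33 separate sites at the loci, of 40138 in the genome.

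ChIP-Seq, the sequencing of DNA fragments recovered with an antibody against a DNA-binding protein, was performed in clonal lines of X18.1.1, a radiation-induced murine acute myeloid leukaemia (AML) cell line that had lost one copy of Pu.1 and carried a mutant PU.1 on the other. The PU.1− line had been transduced with an empty retroviral vector and held mutant PU.1 alone. The PU.1+ line had been transduced with PuER, in which wild-type PU.1 is joined to an oestrogen receptor portion and becomes active on 4-hydroxytamoxifen (OHT), and held mutant and wild-type PU.1 together. Per the labels, both lines received 100 nM OHT for 2 h. Each antibody was represented by 1 library in each line, and each line was 1 clone, so a difference between lines had no replicate check and cannot be told apart from a difference between clones, libraries or their depth. The depth of the libraries is unknown because the lists gave coordinates alone. A peak in only 1 list was therefore a difference in calling, and its absence from the other list did not show that binding was absent.

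Neutrophils store antimicrobial proteins in granules that are filled in sequence as myeloid cells mature. Primary (azurophil) granule proteins are made by promyelocytes and include myeloperoxidase and the serine proteases, whereas secondary (specific) granule proteins are made later, at the myelocyte and metamyelocyte stages. CEBPA is a transcription factor that takes part in the commitment of progenitors to the granulocyte lineage. PU.1, an ETS family factor, is required for monocytic and granulocytic development and binds purine-rich elements centred on GGAA.

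The DNA immediately upstream of 7 of these genes is shown first because the genes differed in which factor had a peak at the gene start. Mpo and Elane had a PU.1 peak there in the PU.1+ line, Elane, Ctsg, Camp, Ngp and Lyz2 had CEBPA peaks in both lines, and Lyz1, the tandem copy of Lyz2, had neither. The windows of Lcn2, Prtn3 and Ltf are not printed. Lcn2 also had CEBPA peaks within 1 kb of a transcript start in both lines, whereas Prtn3 and Ltf had no peak there. Each sequence holds 150 bases of GRCm38 that end at the base before the gene start, 5′ to 3′ on the strand of the gene. Capitals mark matches on either strand to GGAAGT, the ETS core used here, or to TTGCNNAA, the CEBP core used here.
Mpo (chr11:87793431-87793580, plus strand): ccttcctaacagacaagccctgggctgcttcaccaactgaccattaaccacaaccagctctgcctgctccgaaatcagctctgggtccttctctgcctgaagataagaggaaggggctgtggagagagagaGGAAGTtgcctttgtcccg
Elane (chr10:79886097-79886246, plus strand): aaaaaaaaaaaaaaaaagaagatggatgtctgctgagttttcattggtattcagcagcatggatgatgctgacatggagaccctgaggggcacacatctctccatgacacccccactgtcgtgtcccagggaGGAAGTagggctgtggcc
Ctsg (chr14:56102575-56102724, minus strand): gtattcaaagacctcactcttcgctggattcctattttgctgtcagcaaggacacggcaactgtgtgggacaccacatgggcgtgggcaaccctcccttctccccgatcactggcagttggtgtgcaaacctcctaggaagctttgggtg
Camp (chr9:109849618-109849767, minus strand): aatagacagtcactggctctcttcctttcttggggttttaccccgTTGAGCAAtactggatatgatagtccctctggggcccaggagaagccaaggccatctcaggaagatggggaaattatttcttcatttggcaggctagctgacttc
Ngp (chr9:110419597-110419746, plus strand): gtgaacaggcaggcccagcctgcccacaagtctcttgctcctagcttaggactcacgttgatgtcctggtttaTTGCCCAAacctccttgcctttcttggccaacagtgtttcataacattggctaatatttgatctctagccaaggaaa
Lyz2 (chr10:117282322-117282471, minus strand): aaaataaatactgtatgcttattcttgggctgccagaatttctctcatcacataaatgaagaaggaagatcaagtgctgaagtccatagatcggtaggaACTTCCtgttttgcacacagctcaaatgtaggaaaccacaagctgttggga
Lyz1 (chr10:117292869-117293018, minus strand): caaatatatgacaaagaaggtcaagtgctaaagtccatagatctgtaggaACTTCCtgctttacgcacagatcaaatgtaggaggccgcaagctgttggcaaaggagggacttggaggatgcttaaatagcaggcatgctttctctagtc

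In these windows, the GGAAGT match of Mpo began 19 bases upstream of the gene start and that of Elane 18 bases upstream, and both were part of the longer PU.1-type element GAGGAAGT. The CEBP matches of Camp and Ngp began 105 and 77 bases upstream. Lyz2 and Lyz1 carried the same ACTTCC match, the reverse complement of GGAAGT, at 51 and 100 bases before their annotated starts. The Ctsg window held neither element.

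Over all 10 genes, 5 had GGAAGT in this window (Mpo, Elane, Lcn2, Lyz2 and Lyz1), against 14.2% of 21938 protein-coding genes. Lyz2 and Lyz1 are tandem copies that carried the same match, so they are not independent counts. TTGCNNAA was present in 3 (Ltf, Camp and Ngp), against 5.01% of all genes, and GAGGAAGT in 2 (Mpo and Elane), against 1.64%. A match describes the letters of the window and is not evidence of a bound site, and each GAGGAAGT is also counted as a GGAAGT.

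Sites away from the gene starts are represented by the central 80 bases of 7 peaks, printed on the strand of the gene with the same capitals. Mpo, Prtn3, Lcn2, Lyz2 and Lyz1 are shown because peaks of both factors overlapped there in the PU.1+ line, and the peak printed from each pair was picked after the sequences were seen. Elane and Ltf were added after their values were seen, the first for its match with Mpo and the second for its repeated ETS element.
Mpo, CEBPA peak of the PU.1+ line (chr11:87790179-87790258, plus strand): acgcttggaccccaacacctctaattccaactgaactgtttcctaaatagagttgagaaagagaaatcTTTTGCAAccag
Elane, CEBPA peak of the PU.1+ line (chr10:79884611-79884690, plus strand): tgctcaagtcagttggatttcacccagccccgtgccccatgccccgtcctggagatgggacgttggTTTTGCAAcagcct
Prtn3, PU.1 peak of the PU.1+ line (chr10:79877995-79878074, plus strand): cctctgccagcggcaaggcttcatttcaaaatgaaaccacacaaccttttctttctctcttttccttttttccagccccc
Ltf, PU.1 peak of the PU.1+ line (chr9:111046340-111046419, plus strand): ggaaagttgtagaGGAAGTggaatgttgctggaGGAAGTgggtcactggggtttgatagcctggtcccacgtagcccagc
Lcn2, PU.1 peak of the PU.1+ line (chr2:32393034-32393113, minus strand): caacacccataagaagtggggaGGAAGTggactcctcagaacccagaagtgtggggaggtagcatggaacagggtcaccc
Lyz2, CEBPA peak of the PU.1+ line (chr10:117285104-117285183, minus strand): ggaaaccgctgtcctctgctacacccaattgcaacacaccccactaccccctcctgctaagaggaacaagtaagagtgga
Lyz1, PU.1 peak of the PU.1+ line (chr10:117302032-117302111, minus strand): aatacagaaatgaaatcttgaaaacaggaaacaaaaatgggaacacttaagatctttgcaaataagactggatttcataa

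The Mpo and Elane CEBPA peaks, 3363 and 1597 bp upstream of their genes, held the same 8 bases, TTTTGCAA, a reverse-strand match to TTGCNNAA. The Ltf peak held GGAAGT in tandem, and the Lcn2 peak held a single GGAAGT, in each case as GAGGAAGT. The Prtn3, Lyz2 and Lyz1 windows held no match to either element. The partner peaks of the PU.1+ line that are not printed, among them PU.1 at Mpo and CEBPA at Lcn2, held none in their central 80 bases, nor did the peaks of the other Prtn3 site with both factors.

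Peaks of both factors were found at these loci in both lines. A CEBPA peak lay within 20 kb of all 10 genes in the PU.1− line, against 56.5% of all protein-coding genes, and of all 10 in the PU.1+ line, against 51.3%. A PU.1 peak lay within 20 kb of 7 genes in the PU.1− line, against 23.7% of all genes, and of 9 in the PU.1+ line, against 41.4%. Among 11186 genes as long as the shortest to the longest of the 10 (1969 to 23497 bp), the 4 shares were lower, at 51.2% and 45.5% for CEBPA and 20.4% and 34.3% for PU.1. Ctsg was the gene without a PU.1 peak in the PU.1+ line. Some of these peaks were nearer to the start of another gene. When the nearest transcript start had to belong to a member of the 10, PU.1 peaks remained at 5 genes in the PU.1− line and 7 in the PU.1+ line. CEBPA peaks then remained at 9 genes in each line. The share of all genes under that rule was not computed. Elane and Prtn3 share 1 window of DNA and Lyz1 and Lyz2 another, so the 10 genes made 8 windows, of which 5 held a PU.1 peak in the PU.1− line and 7 in the PU.1+ line. The median number of peaks per gene was 1 for PU.1 in the PU.1− line and 3 for each of the other lists, against medians over all genes of 0 for PU.1 in both lines and 1 for CEBPA in both.

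**Figure D1:**
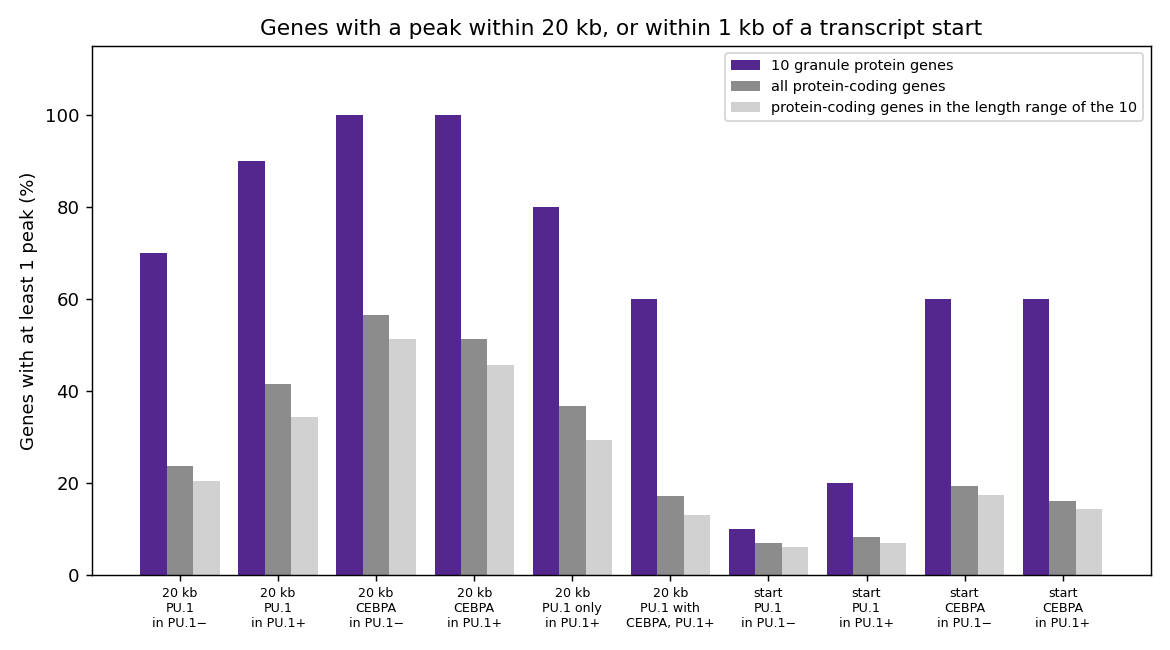
Percentage of genes with at least 1 peak, for the 10 granule protein genes (purple), all protein-coding genes (dark grey) and protein-coding genes in the length range of the 10 (light grey); the first 6 groups count peaks within 20 kb of the gene, and the last 4 count peaks whose centre lay within 1 kb of a transcript start. The purple bar stands above both grey bars in every group, with the smallest gap for PU.1 peaks of the PU.1− line at transcript starts, where 1 of 10 genes had a peak.

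CEBPA peaks lay at the starts of more of these genes than PU.1 peaks did. Within 1 kb of a transcript start, CEBPA peaks were called at 6 of the 10 genes in both lines (Elane, Ctsg, Camp, Lcn2, Ngp and Lyz2), against 19.4% of all genes in the PU.1− line and 16% in the PU.1+ line. PU.1 peaks were called at the start of 1 gene in the PU.1− line (Elane), against 6.81% of all genes, a share near the background. In the PU.1+ line they were called at 2 (Mpo and Elane), against 8.19%. Elane was therefore the only gene of the 10 with both factors at its start, and no peak of either factor lay within 1 kb of a start of Prtn3, Ltf or Lyz1.

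The PU.1 lists differed most between the lines. Of the 16 PU.1 peaks in the PU.1+ line, 5 were shared with the PU.1− line (31.2%, exact 95% interval 11.0 to 58.7%, counting error only) and 11 were not. The shared percentage over all PU.1 peaks of the PU.1+ line was 18.9%, inside that interval. The 11 additional peaks were spread over 8 of the 10 genes, with 36.7% of all protein-coding genes having at least 1 such peak, and over 6 of the 8 windows. Ctsg and Lcn2 had none. In the opposite direction, 1 PU.1 peak was called in the PU.1− line alone, 17087 bp downstream of the Ctsg start.

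No CEBPA peak was called in the PU.1+ line alone within 20 kb of these genes, whereas 2 were within 50 kb. All 21 CEBPA peaks of the PU.1+ line overlapped a CEBPA peak of the PU.1− line, so 0 of 21 were called in the PU.1+ line alone, with an exact 95% upper limit of 16.1%. Over the genome 87.9% of CEBPA peaks in the PU.1+ line were shared, within the interval at the granule loci of 83.9 to 100%. Conversely, 3 of the 24 CEBPA peaks of the PU.1− line were not called in the PU.1+ line. They lay 1098 bp upstream of Ctsg, 16875 bp upstream of Camp and 4319 bp upstream of Ngp, and none of them overlapped a PU.1 peak. The 21 others were 87.5% of the 24 (67.6 to 97.3%), against 69.3% over all CEBPA peaks of the PU.1− line.

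**Figure D2:**
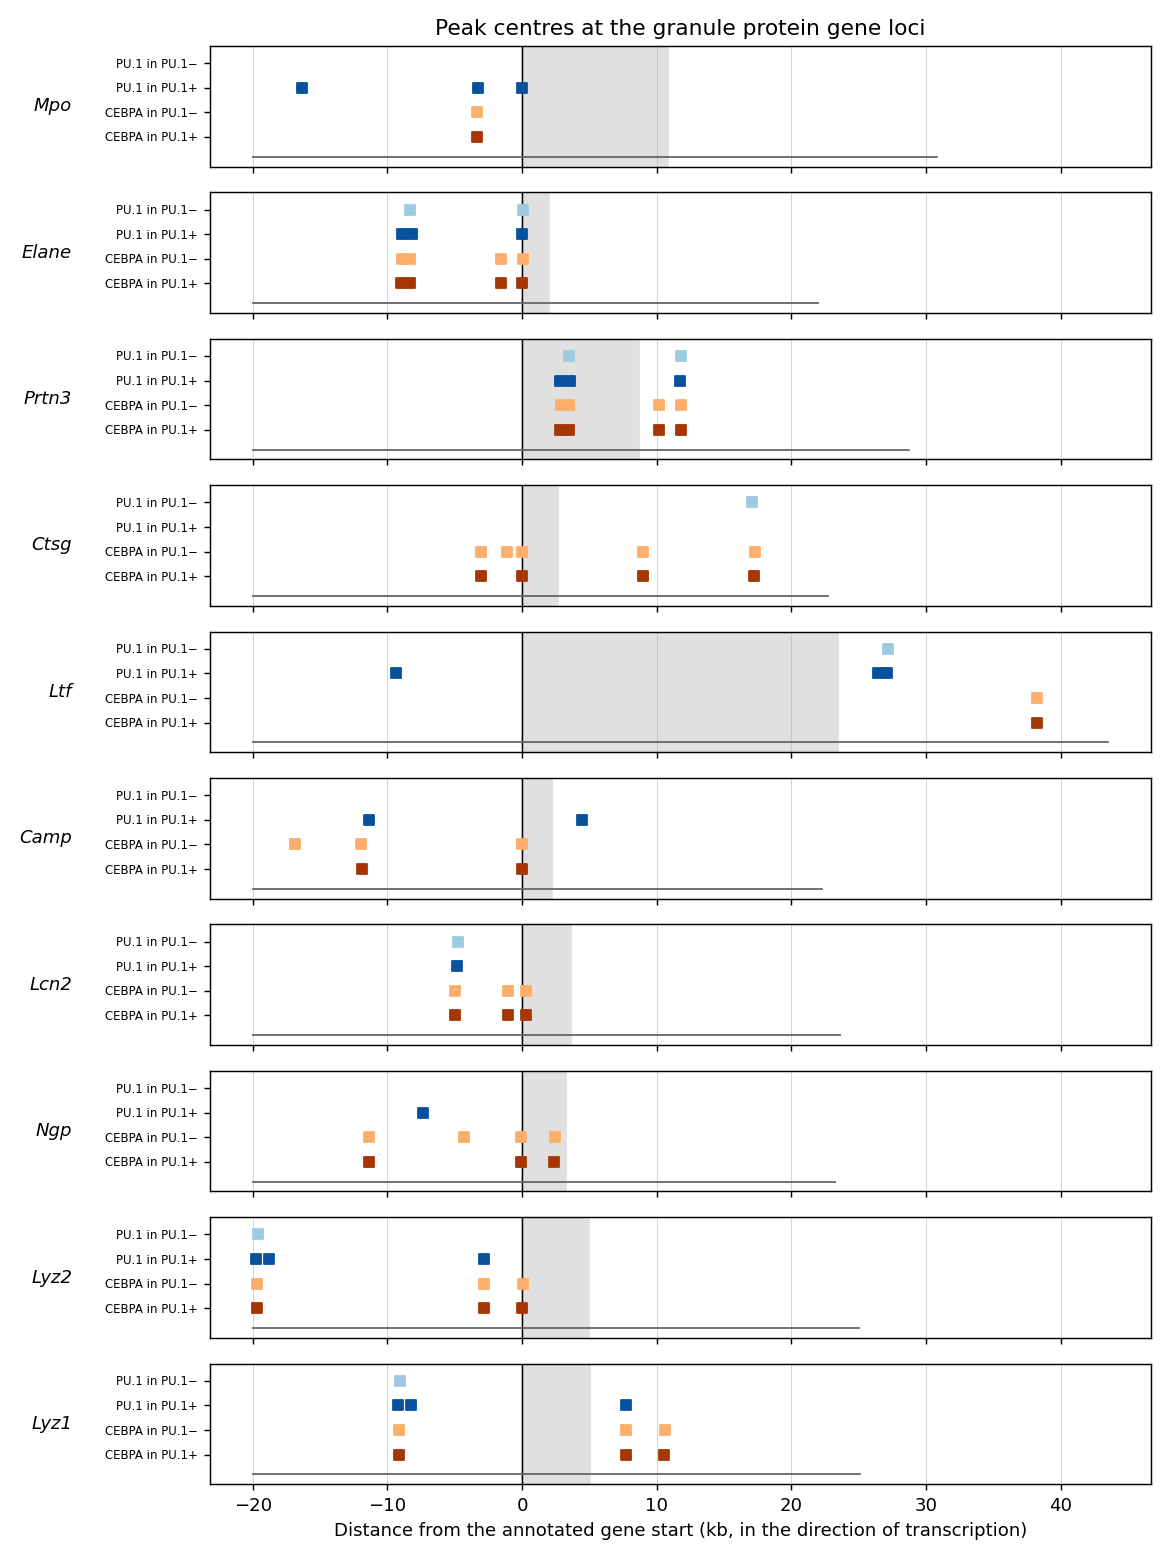
Position of each peak centre, in kb from the annotated gene start in the direction of transcription, for the 10 genes (rows) and the 4 libraries (light blue, PU.1 in PU.1−; dark blue, PU.1 in PU.1+; light orange, CEBPA in PU.1−; dark orange, CEBPA in PU.1+); grey shading is the gene body, and the horizontal line is the gene with its 20 kb flanks. Every dark orange square has a light orange square at its position, whereas dark blue squares without a light blue square occur at 8 of the 10 genes; Elane and Prtn3 show the same peaks, as do Lyz2 and Lyz1.

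The primary granule genes had 12 of the 33 sites, of which 5 held both factors, 5 CEBPA alone and 2 PU.1 alone. At Mpo (ENSMUSG00000009350.13, chr11:87793581-87804413, plus strand), which encodes myeloperoxidase, the PU.1− line had no PU.1 peak and the PU.1+ line had 3. The first covered the gene start (chr11:87793352-87793751), with its centre 30 bp upstream of the start, and held no CEBPA peak in either line. The second lay 3272 bp upstream, where CEBPA was called in both lines, at 3371 bp upstream in the PU.1− line and 3363 bp upstream in the PU.1+ line. This was the only CEBPA site at Mpo, and the PU.1 and CEBPA centres were 91 bp apart in the PU.1+ line. The last PU.1 peak lay 16367 bp upstream, in a coding exon of the neighbouring gene Tspoap1 and 121 bp from a transcript start of that gene.

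Elane (ENSMUSG00000020125.7, chr10:79886247-79888215, plus strand) and Prtn3 (ENSMUSG00000057729.12, chr10:79874476-79883174, plus strand) encode neutrophil elastase and proteinase 3, serine proteases of the primary granule, and lie side by side. The Elane start was in all 4 lists. The PU.1 centres there were 43 bp downstream of the start in the PU.1− line and 7 bp upstream in the PU.1+ line, and the CEBPA centres 34 and 5 bp downstream. In the PU.1+ line the 2 factors' centres were 12 bp apart, the closest pair at these loci. CEBPA alone was called in both lines 1.6 kb upstream of Elane.

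Both remaining sites of this pair lay in an intron of the longest annotated extent of Prtn3. One, 3.48 kb downstream of the gene start, was in all 4 lists, and its nearest peak centre was 1580 bp from a downstream Prtn3 transcript start. The other was called for CEBPA in both lines and for PU.1 in the PU.1+ line alone, 2830 bp downstream of the gene start and 43 bp from the CEBPA centre. The PU.1 centre of this second site was 2308 bp from the same downstream Prtn3 transcript start. Neither site held a GGAAGT or TTGCNNAA element anywhere in its joined span.

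Ctsg (ENSMUSG00000040314.2, chr14:56099881-56102574, minus strand) encodes cathepsin G and differed from the other primary granule genes in having no PU.1 peak in the PU.1+ line. CEBPA was called there in both lines at 4 sites. One covered the gene start, with centres 19 bp downstream of it in the PU.1− line and 2 bp downstream in the PU.1+ line, and another lay 3.1 kb upstream. A site 9.0 kb downstream followed. The last, 17.2 kb downstream, was nearest to a start of the mast cell protease gene Mcpt8, at 32 bp, and was the site with the PU.1 peak of the PU.1− line.

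The secondary granule genes had 17 sites, of which 1 held both factors, 10 CEBPA alone and 6 PU.1 alone. Ltf (ENSMUSG00000032496.7, chr9:111019271-111042767, plus strand) encodes the iron-binding protein lactoferrin. It had PU.1 peaks 9349 bp upstream and 26444 and 27108 bp downstream of its start in the PU.1+ line, and the last of these was shared with the PU.1− line, centred there at 27200 bp. These were all outside the gene body, and no CEBPA peak overlapped them. The site at 27.1 kb was the only one of the 33 called for PU.1 in both lines with no CEBPA peak, and the 3 GGAAGT elements in its joined span were the most of any site. The CEBPA site of the Ltf window, called in both lines, lay 12 bp from a transcript start of Ccrl2, another gene.

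Camp (ENSMUSG00000038357.10, chr9:109847379-109849617, minus strand) encodes the cathelicidin antimicrobial peptide. CEBPA was called in both lines over the Camp start, 19 bp downstream of it in the PU.1− line and 12 bp upstream in the PU.1+ line, and again 11.9 kb upstream. PU.1 was called in the PU.1+ line alone, 11408 bp upstream and 4446 bp downstream of the start. The upstream PU.1 peak was next to the distal CEBPA site without overlapping it.

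Ngp (ENSMUSG00000032484.8, chr9:110419747-110423012, plus strand) encodes neutrophilic granule protein, a relative of the cathelicidins and cystatins. As at Camp, CEBPA covered the region of the gene start in both lines, with centres 59 and 57 bp upstream, and PU.1 was called in the PU.1+ line alone at a separate position, 7382 bp upstream. CEBPA was also called in both lines in an intron 2.4 kb downstream of the start, and 11.4 kb upstream, at 128 bp from a transcript start of Ptpn23.

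Lcn2 (ENSMUSG00000026822.14, chr2:32384633-32388252, minus strand) encodes the siderophore-binding protein lipocalin 2. It had the only secondary granule site with both factors, 4.8 to 5.0 kb upstream of the gene start and in all 4 lists. There the PU.1 centre was 4796 bp upstream in the PU.1− line and 4821 bp in the PU.1+ line, and the PU.1 and CEBPA centres were 148 bp apart in the PU.1+ line, the widest such pair. The nearest transcript start belonged to Ptges2, 2674 bp from the CEBPA centre of the PU.1− line. CEBPA alone was called in both lines 1.1 kb upstream of Lcn2 and 0.3 kb downstream of its start, in a coding exon and 135 bp from another Lcn2 transcript start in the PU.1+ line.

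The lysozyme genes had 4 sites. Lyz2 (ENSMUSG00000069516.8, chr10:117277331-117282321, minus strand) is the lysozyme gene of mouse macrophages and neutrophils, and Lyz1 (ENSMUSG00000069515.6, chr10:117287797-117292868, minus strand) is its tandem copy, known for its expression in Paneth cells of the intestine. CEBPA was called over the Lyz2 start in both lines, 33 and 16 bp downstream, with no PU.1 peak. A site 2.8 kb upstream of Lyz2 had CEBPA in both lines and gained a PU.1 call in the PU.1+ line, with the 2 centres 16 bp apart.

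Upstream of Lyz1, a site at 9.1 kb was in all 4 lists and a PU.1 peak at 8230 bp was called in the PU.1+ line alone. No peak lay at the Lyz1 start. The RefSeq promoter windows of Lyz2 and Lyz1 (GRCm38.p6, 250 bases before to 50 after the start) were identical at 249 of 300 bases and shared a run of 86, and how reads that fit both copies were placed is not given in the sources used here, so the assignment of peaks between the copies is uncertain.

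**Figure D3:**
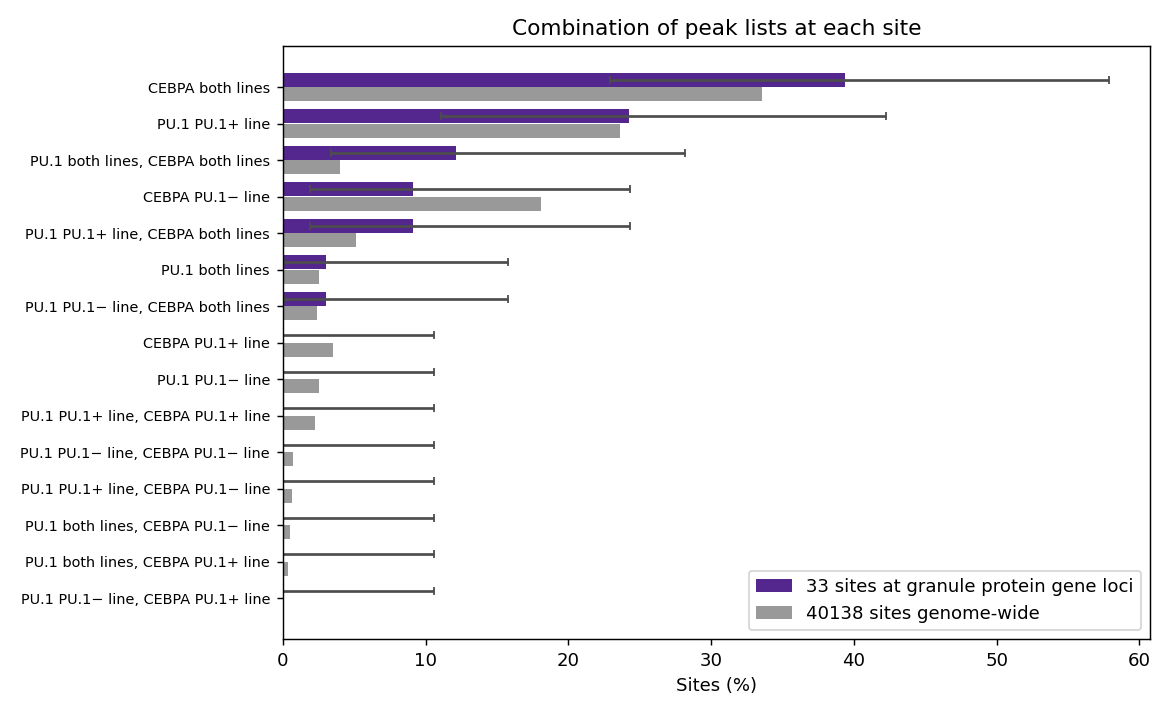
Percentage of sites with each combination of peak lists, for the 33 sites at the granule protein gene loci (purple, with exact 95% binomial intervals that cover counting error only) and all sites of the genome (grey). CEBPA in both lines without PU.1 was the most frequent combination in both, at 39.4% and 33.6%, and no granule site falls in the combinations with a CEBPA peak of the PU.1+ line alone.

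Read across the loci, CEBPA sites present in both lines were the most frequent. CEBPA in both lines without PU.1 made up 13 of the 33 sites (39.4%, exact 95% interval 22.9 to 57.9%, genome 33.6%), and PU.1 in the PU.1+ line alone made up 8 (24.2%, 11.1 to 42.3%, genome 23.6%). The 4 sites in all 4 lists were 12.1% (3.40 to 28.2%), with 4.01% over the genome. They were the Elane start, the Prtn3 intron, Lcn2 at 4.8 kb upstream and Lyz1 at 9.1 kb upstream. With or without PU.1, CEBPA in both lines was found at 21 sites (63.6%, 45.1 to 79.6%, genome 45.1%). The genome value lay inside the interval for the first 3 of these patterns and just below it for the last, by less than the rounding shown.

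In position, 23 of the 33 sites were intergenic, and 26 had a member of the 10 as the gene of their nearest transcript start. The other 7 were nearer to a start of Tspoap1, Mcpt8, Ccrl2, Cdc25a, Ptges2 or Ptpn23, the last of these at 2 sites. Genome shares for these counts are not given here. Most of each window was flank outside the gene body, so the counts describe the sites and do not set the loci apart.

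PU.1 and CEBPA peaks met at part of the sites in both lines. In the PU.1+ line 7 of 16 PU.1 peaks overlapped a CEBPA peak (43.8%, exact 95% interval 19.8 to 70.1%, all PU.1 peaks 29.8%), and 7 of 21 CEBPA peaks overlapped a PU.1 peak (33.3%, 14.6 to 57.0%, all CEBPA peaks 22.7%). In the PU.1− line 5 of 6 PU.1 peaks did so (83.3%, 35.9 to 99.6%, all PU.1 peaks 57.6%), as did 5 of 24 CEBPA peaks (20.8%, 7.13 to 42.2%, all CEBPA peaks 11.7%). Each genome value lay within its interval. Such an overlap in the PU.1+ line was present at 6 of the 10 genes, in 4 of the 8 windows, with 17.2% of all protein-coding genes having one.

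The 11 PU.1 peaks called in the PU.1+ line alone divided into 3 that fell on a CEBPA site already called in the PU.1− line and 8 with no CEBPA peak in either line. The 3 were the Mpo site 3.3 kb upstream, the Prtn3 site 2.8 kb downstream of its annotated gene start and the Lyz2 site 2.8 kb upstream. The 8 were 72.7% of the 11, a share near the 74.6% of 12702 such sites in the genome, and the 3 were 27.3%, against 18.2%. At each of the 3 sites CEBPA was again called in the PU.1+ line. No new PU.1 peak lay on a new CEBPA peak, so 0 of 11 did so, against 7.14% of the 12702 such sites in the genome. With 11 peaks, 0 cannot be told apart from that share. Counted over sites of every kind, the combination made up 2.26% in the genome, and 0 of 33 at the granule loci allows up to 10.6%.

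In the central 80 bp, the share of PU.1 peaks with the ETS element was close to the genome's in the PU.1+ line. It was lower in the PU.1− line, on few peaks and within counting error. Of the 16 PU.1 peaks of the PU.1+ line, 7 held GGAAGT within their central 80 bp (43.8%, 19.8 to 70.1%), against 43.5% of all PU.1 peaks of that line. In the central 200 bp it was again 7 of 16, against 58.2% of all, inside the same interval. The 7 were the starts of Mpo and Elane, the 3 Ltf peaks, Camp at 4.4 kb downstream and Lcn2 at 4.8 kb upstream. In 5 of them the element was GAGGAAGT (31.2%, 11.0 to 58.7%, all peaks 15.2%), and in none was it the ETS1-type CAGGAAGT or CCGGAAGT (0 of 16, upper limit 20.6%, all peaks 6.43%). In the PU.1− line none of the 6 PU.1 peaks had GGAAGT in the central 80 bp (upper limit 45.9%, all peaks 36.5%). In the central 200 bp 3 of 6 had it (50%, all peaks 53.7%), and 4 of 6 had it somewhere in the 400 bp peak (66.7%, all peaks 62.3%).

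The position of the element within the PU.1 peaks shared by the lines was compared after these values were seen. The distance from the peak centre to the nearest GGAAGT was 59 bp in the PU.1− line and 9 bp in the PU.1+ line at Elane. At Lcn2 it was 40 and 15 bp, and at Ltf 46 and 4 bp. The order was opposite at Lyz1, with 117 and 149 bp, and the fifth shared peak, in Prtn3, held no GGAAGT. The centre was thus nearer in the PU.1+ line at 3 of 4 shared peaks, against 1115 (53.1%) of 2100 shared PU.1 peaks with GGAAGT in the genome, of which 926 were nearer in the PU.1− line. These 4 pairs are too few to set the granule loci apart.

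The CEBP element was found in a smaller share of CEBPA peaks at granule loci than over the genome, within counting error. TTGCNNAA was in the central 80 bp of 4 of 24 peaks in the PU.1− line (16.7%, 4.74 to 37.4%, all peaks 35.6%) and of 4 of 21 in the PU.1+ line (19.0%, 5.45 to 41.9%, all peaks 38.2%). Elane at 1.6 kb upstream, Lcn2 at 0.3 kb downstream and the Ngp start carried it in both lines. Over the whole peak the shares were 41.7% and 38.1%, against 51.7% and 53.7% of all peaks. The CEBPA peaks over the starts of Elane, Ctsg and Lyz2 held no TTGCNNAA.

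**Figure D4:**
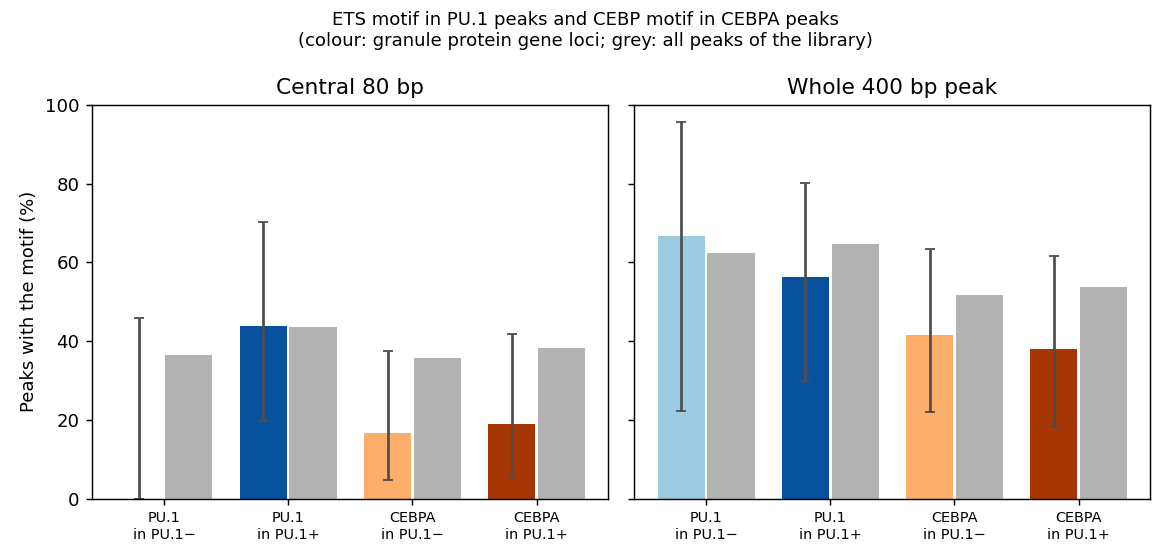
Percentage of peaks that hold the motif, GGAAGT in PU.1 peaks and TTGCNNAA in CEBPA peaks, in the central 80 bp (left) and the whole 400 bp peak (right); coloured bars are peaks at the granule protein gene loci with exact 95% binomial intervals for counting error, and grey bars all peaks of the same library. In each of the 8 pairs the grey bar lies within the interval of the coloured one, and the coloured bar for PU.1 in the PU.1− line is at 0 of 6 peaks in the central window.

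The 16 other granule and granule-processing genes on the comparison list (Bpi, Ctsc, Srgn, Serpinb1a, Cst7, Mmp8, Mmp9, Mmp25, Chil3, Hp, Cd177, Olfm4, Ptx3, Slpi, Padi4 and Cebpe) were counted in the same way. A PU.1 peak was within 20 kb of 5 of them in the PU.1− line and 12 in the PU.1+ line, and a CEBPA peak of 15 and 13. Over all protein-coding genes the shares were 23.7% and 41.4% for PU.1 and 56.5% and 51.3% for CEBPA, so that the 5 of 16 (31.2%) for PU.1 in the PU.1− line was near the background. PU.1 peaks called in the PU.1+ line alone were found at 10 of the 16, against 36.7% of all genes. The median number of peaks per gene was 0 and 1 for PU.1 and 3 and 2 for CEBPA, in the PU.1− and PU.1+ lines respectively.

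Srgn, which encodes the granule proteoglycan serglycin, had 3 PU.1 peaks in the PU.1− line and 5 in the PU.1+ line, with 12 and 8 CEBPA peaks. Olfm4, a specific granule glycoprotein gene, had no PU.1 peak in the PU.1− line and 5 in the PU.1+ line. Mmp8, which encodes neutrophil collagenase, had 2 and 4 PU.1 peaks and 6 CEBPA peaks in each line. Ctsc, which encodes the protease that activates the granule serine proteases, had 0 and 3 PU.1 peaks and 2 and 6 CEBPA peaks, and was named for its number of CEBPA peaks in the PU.1+ line. CEBPA peaks were more numerous in the PU.1+ line at 2 of the 16 genes, equal at 4 and fewer at 10. Among the 10 granule protein genes they were more numerous at 0, equal at 7 and fewer at 3. The whole CEBPA list was also shorter in the PU.1+ line, with 20583 peaks against 26119. The same counts over all protein-coding genes were not made, so these do not set granule genes apart.

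The limit of 20 kb passed close to a group of peaks near Ltf. In each of the 4 lists the nearest peak left out lay there, 20166 to 20267 bp from the gene, whereas the farthest peak counted was 14394 bp from its gene for PU.1 in the PU.1− line (Ctsg), 16367 bp for PU.1 in the PU.1+ line (Mpo), 16875 bp for CEBPA in the PU.1− line (Camp) and 14736 bp for CEBPA in the PU.1+ line (Ltf).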

How the data were processed

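PU.1 and CEBPA ChIP-Seq peaks of the PU.1− and PU.1+ lines were taken as deposited, 1 library per antibody and line. Per the submitters' processing notes, the authors mapped reads with Bowtie2 (2.0.6) to mm10 (GRCm38) and called peaks in MACS2 (2.0.10). The calling threshold and control are not given in the sources used here. The deposited lists hold peak coordinates and no other measurement (chromosome, start and end, all 400 bp wide), so peak height and depth are unknown, a weak peak counts like a strong one, and a line sequenced more deeply could yield more peaks. The H3K27Ac and IgG samples of the series were not analysed here.

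Peak centres were assigned to GENCODE M21 genes within 20 kb. Peaks sharing at least 1 bp were called shared, and peaks chained by such overlaps across the 4 lists made 1 site. Distances run from the annotated gene start to peak centres. Motifs were searched on both strands of the GRCm38 sequence in the central 80 bp. With 1 library per group no test was possible, and exact (Clopper-Pearson) 95% intervals cover counting error alone. The background was all protein-coding genes outside the mitochondrial chromosome, and the same genes limited to the length range of the 10. Genes named were the 10, any other gene with a transcript start nearer to one of their sites, and the 3 comparison genes with the most PU.1 and the most CEBPA peaks in the PU.1+ line. The members and lists were chosen with earlier results of these data known. Alternatives were windows of 10 and 50 kb, nearest-start assignment, 50% overlap or centres within 100 bp, and other motif windows and letters. Scripts were tested on simulated data and ran in Python 3.11.15 with numpy 2.4.6, pandas 2.3.3, scipy 1.17.1 and Biopython 1.88, and matplotlib 3.10.9 drew the figures.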

Additional observations from a re-analysis of the deposited data

How the results depend on the processing

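Of 86 recomputed values, 71 stayed within 1.5 times the count, or within the interval, reported above. With windows of 50 kb, 26 PU.1 peaks of the PU.1+ line were counted, 19 of them in that line alone, and 2 PU.1 peaks of the PU.1− line alone, while 7 CEBPA peaks were called in the PU.1− line alone and 2 in the PU.1+ line alone, so that the absence of gained CEBPA peaks held for windows of 10 and 20 kb and not for 50 kb. The PU.1 peak found in the PU.1− line alone was not counted within 10 kb or by nearest start (0 in each case), and became 2 when shared centres had to lie within 100 bp, which splits the Lyz1 pair. The looser motif TTNCNNAA was in 42.9% of CEBPA peaks of the PU.1+ line and 45.8% of those of the PU.1− line. Its share over all CEBPA peaks is not given here. TTGCNNAA was in 41.7% of CEBPA peaks of the PU.1− line when the whole peak was searched. Among genes in the members' length range, background shares were 20.4% and 34.3% for PU.1 and 51.2% and 45.5% for CEBPA, in the PU.1− and PU.1+ lines. No paired analysis was possible because each antibody and line had 1 library and no result came from a test. Unknown depth and calling threshold limit every count of peaks missing from a list.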
